A study of Mus musculus with 9 samples.

Results

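The 35 genes described here encode the Fanconi pathway, its partners in homologous recombination, the damage checkpoint kinases, and enzymes that reverse alkylation or copy past damaged bases. They were chosen by symbol with earlier results of these data known, and all 35 were among the 19517 genes of the authors' deposited table. Shares over all genes are therefore set beside theirs as a description and not as a test. RNA-seq was made from ovaries of female BALB/c nude mice, which lack a thymus, and each animal bore a xenograft of MDA-MB-231 cells, an established line from human breast cancer. The 9 libraries were 3 of the CAU group, which received caulerpin (a bisindole compound made by Caulerpa seaweeds), 3 of the CTX group, given cyclophosphamide, and 3 of the UT group, with no treatment. For CAU the labels name caulerpin only and do not say whether cyclophosphamide was given as well, and no age, dose or time is stated. The study's title concerns ovarian damage by cyclophosphamide and its relief by caulerpin, and the comparisons here show whether transcripts of the repair pathway for this drug's lesions differed between the groups.

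Cyclophosphamide is converted in the body to a mustard that alkylates guanine and can join the strands of DNA, so that a replication fork cannot pass. The Fanconi core complex then attaches ubiquitin to the FANCD2 and FANCI clamp, nucleases unhook the crosslink, translesion polymerases fill the gap, and BRCA proteins and their partners repair the break by recombination. Many of these genes are transcribed mainly in S phase, so in a whole ovary their level also follows the number of dividing cells, most of which are granulosa cells of growing follicles. Oocytes use some of these proteins in meiosis, and whether that bears on the values here was not tested.

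For each comparison the authors' deposited table lists every gene's log2 fold change with its DESeq2 p, unadjusted and adjusted, and holds no value per library. Levels in single ovaries, the overlap of the groups and the depth behind each value were therefore not examined, and the tissue could not be checked against marker levels. Beside a fold change stands the standard error (SE) implied by its p-value, from which 95% intervals were made. The header does not state which group is the numerator. The second group named was taken to be it, and all signs would flip if it were the first. Since no label ties a library to its own mouse, the p-values reflect sample-to-sample spread alone, part or all of which may be technical. In bulk tissue, fewer cells of a type and less RNA per cell cannot be told apart.

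Set against UT, CTX ovaries had slightly more transcript of most of these genes, and no single gene passed the test. By the authors' deposited table, 0 of the 35 genes had a DESeq2 adjusted p under 0.05 in CTX against UT, where 1.29% of all 19260 tested genes did. An unadjusted DESeq2 p under 0.05 with a higher value in CTX was found for 10 of the 35 in the authors' deposited table, against 4.42% of all genes, and none of the 35 had one with a lower value, against 5.79%. By the authors' deposited table the log2 fold change was above 0 for 31 of the 35, against 44.2% of all genes, and its median was 0.21 over the 35, a 1.15-fold difference, against -0.03 over all genes. Every one of the 35 intervals lay within a 2-fold change in either direction, and 19 lay within a 1.5-fold change. With the SEs of these genes, the log2 fold change needed to pass had a median of 0.57 and ran from 0.28 to 0.91.

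The clamp gene Fanci and the recombination gene Brca1 came nearest to the threshold. Fanci, which encodes the partner of FANCD2 in the clamp, was at 0.56 in the authors' deposited table (SE 0.17, DESeq2 adjusted p = 0.0556), a 1.47-fold difference with an interval of 1.17-fold to 1.84-fold. Brca1, which encodes a ubiquitin ligase that promotes resection of broken ends, was at 0.61 in the authors' deposited table (SE 0.19, DESeq2 adjusted p = 0.0687), a 1.53-fold difference with an interval of 1.18-fold to 1.97-fold. By unadjusted p these were number 264 and number 312 of all genes, of which 249 were called. Both had an adjusted p under 0.05 when the median of all genes was set to 0 (0.0360 for Fanci and 0.0472 for Brca1). Fanci passed also when only genes with an SE of at most 1 were adjusted together. Centring changed the calls over all genes to 290, of which 156 were higher in CTX, against 249 as deposited, of which 91 were higher.

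**Figure D1:**
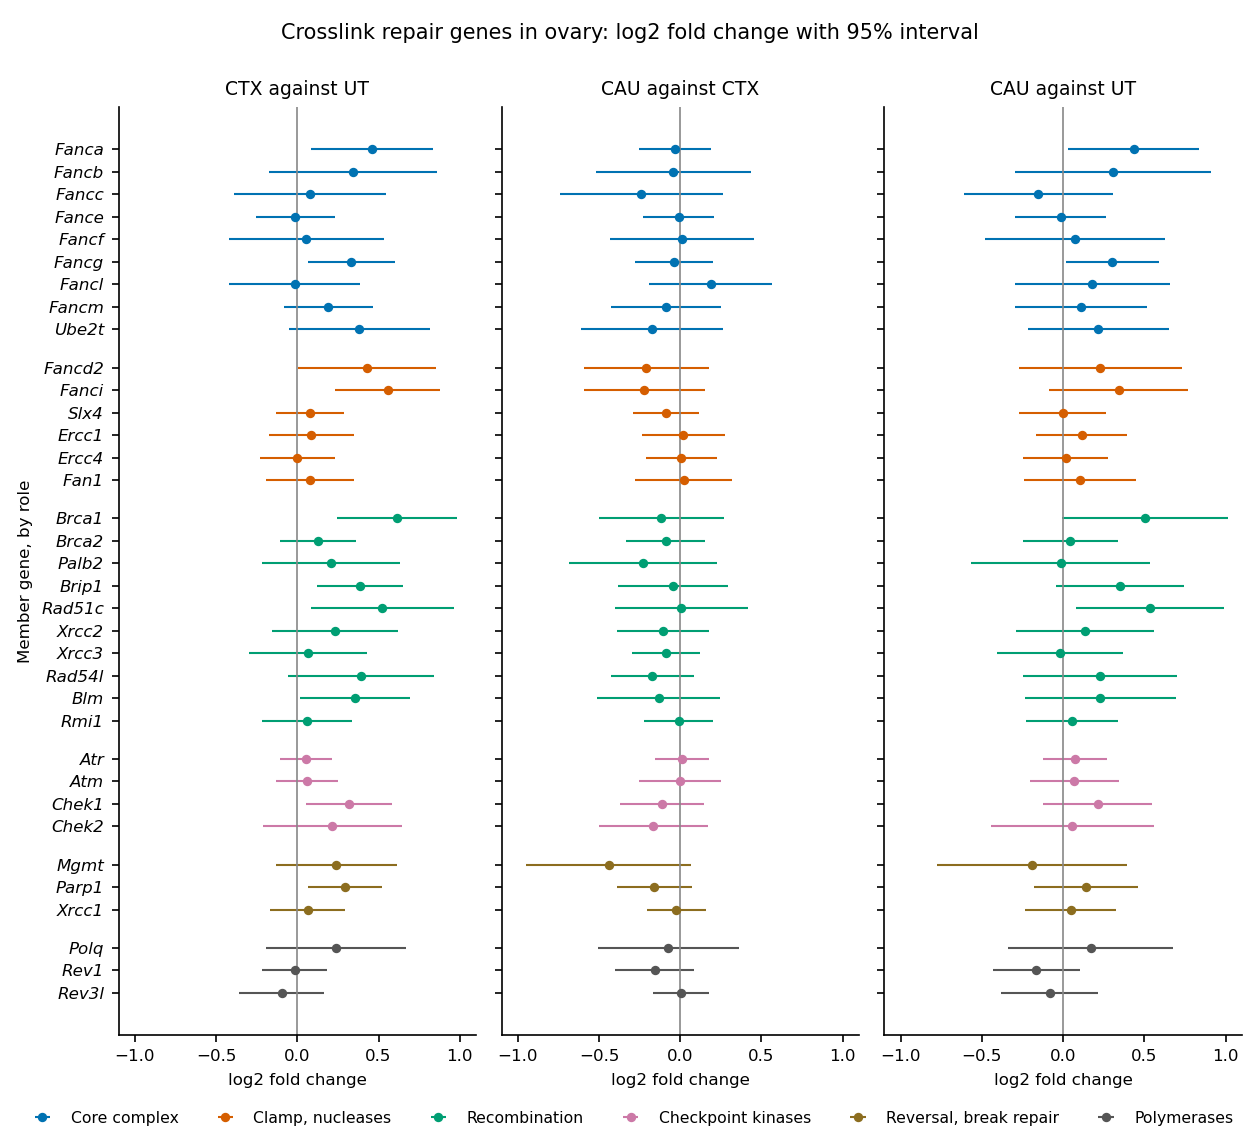
Log2 fold change of each of the 35 genes (points) with its 95% interval (bars), in CTX against UT, CAU against CTX and CAU against UT, with genes down the page by role and colour. In the left panel 31 points lie right of 0 and none of the intervals reaches 1. In the middle panel all 35 intervals cross 0.

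Within the Fanconi core complex, which places the ubiquitin, the differences were uneven. Of its 9 genes, 7 were positive in CTX against UT in the authors' deposited table, with a median of 0.19. Fanca and Fancg, which encode subunits that form one arm of the complex, were at 0.46 (SE 0.19, unadjusted DESeq2 p = 0.0158) and 0.33 (SE 0.14, unadjusted DESeq2 p = 0.0148) in the authors' deposited table. Ube2t, the ubiquitin-conjugating enzyme of the complex, was at 0.38 (SE 0.22) there and Fancb, the partner of the ligase subunit, at 0.34 (SE 0.26) by the authors' deposited table, both with intervals that crossed 0. Fancm, the DNA translocase that anchors the complex, was at 0.19 (SE 0.14) by the authors' deposited table. The remaining 4 were near 0. By the authors' deposited table, Fancc was at 0.08 (SE 0.24), Fancf, an adaptor subunit, at 0.05 (SE 0.24), Fance at -0.01 (SE 0.12) and the ligase gene Fancl at -0.02 (SE 0.21).

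Among the clamp and the nucleases that act after it, the clamp genes had the largest values and the nuclease genes lay near 0, with a median of 0.08 over the 6. Fancd2 was at 0.43 in the authors' deposited table (SE 0.22, unadjusted DESeq2 p = 0.0475). The scaffold gene Slx4, and Ercc1 and Ercc4, which encode the nuclease pair that cuts beside a crosslink, were at 0.08 (SE 0.11), 0.09 (SE 0.13) and 0.00 (SE 0.12) by the authors' deposited table. The nuclease gene Fan1 was at 0.08 (SE 0.14) by the authors' deposited table. The intervals of these 4 genes lay within a 1.5-fold change in either direction.

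All 10 recombination genes were positive in CTX against UT, with a median of 0.29, the highest of the 6 role groups. After Brca1, the largest was Rad51c, which acts in homologous recombination, at 0.52 in the authors' deposited table (SE 0.23, unadjusted DESeq2 p = 0.0203), followed by Rad54l, a DNA motor protein, at 0.39 (SE 0.23). The helicase gene Brip1, the third of the 35 by p, was at 0.38 in the authors' deposited table (SE 0.13, DESeq2 adjusted p = 0.146). Blm, the helicase that dissolves joined molecules, was at 0.35 (SE 0.17, unadjusted DESeq2 p = 0.0397) in the authors' deposited table, while its partner Rmi1 was at 0.06 (SE 0.14). Brca2, a mediator of recombination, was at 0.13 (SE 0.12), and Palb2, which bridges the BRCA proteins, at 0.21 (SE 0.22) by the authors' deposited table. The recombination genes Xrcc2 and Xrcc3 were at 0.23 (SE 0.20) and 0.06 (SE 0.19) there.

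Among the 4 checkpoint kinase genes, all positive with a median of 0.14, Chek1 had the highest value. Chek1, the effector kinase of ATR, was at 0.32 (SE 0.14, unadjusted DESeq2 p = 0.0190), while the upstream kinases Atr and Atm were at 0.05 (SE 0.08) and 0.06 (SE 0.10) by the authors' deposited table. Chek2, the effector of ATM, was at 0.21 (SE 0.22) by the authors' deposited table. The Atr and Atm values were among the most precise of the 35, with intervals from 0.93-fold to 1.16-fold and from 0.91-fold to 1.19-fold.

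Of the genes for direct reversal and single-strand break repair, Parp1, the sensor of nicked DNA, was at 0.29 in the authors' deposited table (SE 0.12, unadjusted DESeq2 p = 0.0110). Mgmt, which removes alkyl groups from guanine, was at 0.24 (SE 0.19) and the scaffold gene Xrcc1 at 0.06 (SE 0.12) by the authors' deposited table. The polymerase genes had the lowest median of the 6 role groups, -0.02. Polq, the polymerase of theta-mediated end joining, was at 0.24 (SE 0.22), and the translesion genes Rev1 and Rev3l were at -0.02 (SE 0.10) and -0.10 (SE 0.13) by the authors' deposited table.

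**Figure D2:**
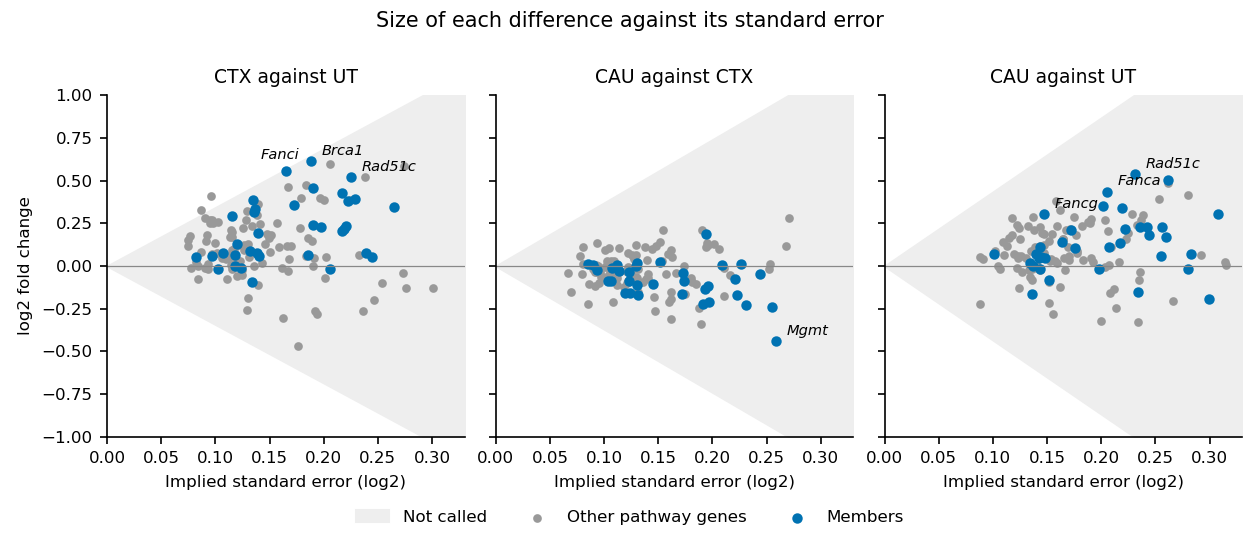
Log2 fold change (vertical axis) against implied SE (horizontal axis) for the 35 genes and for 101 of the 102 other genes of the pathways in each comparison, with 1 gene of SE above 0.33 not drawn. The shaded wedge holds values that would not have passed the threshold. All 35 genes lie inside it in each panel, with Fanci and Brca1 at its upper edge in CTX against UT.

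Exons of 17 of the 35 genes share bases with another annotated gene in GENCODE M21 (GRCm38). The partner is on the opposite strand except for small RNA genes within Atr and Parp1. The strand setting of the authors' counting is unknown, so it cannot be told to which gene reads in the shared bases were assigned. At least 20% of exon bases are shared in 1 of the 35, Rev1. Fanci shares 921 exon bases with Polg, Fanca shares 10.5% with Zfp276, Rad54l shares 15.4% with Lrrc41 and Rev1 shares 26.6% with Eif5b. In CTX against UT of the authors' deposited table, these partners were at 0.05 (SE 0.13) for Polg, 0.09 (SE 0.12) for Zfp276, 0.08 (SE 0.13) for Lrrc41 and 0.05 (SE 0.08) for Eif5b. Polg, Zfp276 and Lrrc41 were nearer 0 than the genes they overlap, while Eif5b was farther from 0 than Rev1, at -0.02. Vrk2, at -0.09 (SE 0.18), and Gas2, at -0.08 (SE 0.25), were also farther from 0 than the genes they overlap. Those genes were Fancl, at -0.02, and Fancf, at 0.05. The part of shared bases in these values was not tested.

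Since many of these genes were positive together, their promoters were searched for motifs of genes transcribed in the cell cycle. RefSeq windows of 300 bases on GRCm38.p6, from 250 before to 50 after a transcription start, were at hand for 32 of the 35 genes, with 2 windows for 4 of them. Exact matches were counted on both strands to 4 E2F motifs (TTTGGCGC, TTTCCCGC, TTTGCCGC and TTTCGCGC), to the CHR motif TTTGAA and to the CCAAT motif, and a gene counted once if any of its windows had a match. An E2F match was found in 5 of the 32 genes (15.6%), against 3.77% of 15204 tested genes with a window. The stretches with these matches are shown first, since E2F is the factor family of S-phase genes, with 30 bases read 5′ to 3′ on the strand of the gene and the E2F match in capitals. They lie at chr4:43010335-43010364 for Fancg, chr5:150522442-150522471 for Brca2, chr11:87404941-87404970 and chr11:87404477-87404506 for the upstream and downstream start sites of Rad51c, chr5:110839820-110839849 for Chek2 and chr13:58402612-58402641 for Rmi1. Fancg and Rad51c are on the minus strand and the others on the plus strand.
Fancg: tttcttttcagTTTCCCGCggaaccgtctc
Brca2: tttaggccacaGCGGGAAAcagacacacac
Rad51c, upstream start: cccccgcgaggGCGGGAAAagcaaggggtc
Rad51c, downstream start: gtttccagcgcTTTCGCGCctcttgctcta
Chek2: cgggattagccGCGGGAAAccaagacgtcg
Rmi1: ccccgagggagTTTGGCGCgattggaggag

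Fancg, Brca2, Chek2 and the upstream start of Rad51c hold the same motif, TTTCCCGC, which in all but Fancg lies on the opposite strand and reads GCGGGAAA. Genes with and without a match had similar medians in CTX against UT. The 5 genes' log2 fold changes in the authors' deposited table ran from 0.06 for Rmi1 to 0.52 for Rad51c, with a median of 0.21, against 0.19 over the 27 genes with a window and no match, which include Brca1 and Fanci. Over all tested genes, those with an E2F match had a median of 0.05 and those without one -0.03. These matches are a description of letters, and the absence of one says nothing of a factor.

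The CCAAT motif was found in 19 of the 32 genes (59.4%), against 42.4% of tested genes, and did not overlap the printed E2F matches. At least 3 matches in 1 window, a count made after the matches were seen, were found in 4 of the 32 genes, Brip1, Fancf, Ube2t and Xrcc3 (12.5%), against 4.77% of tested genes. In CTX against UT of the authors' deposited table, these 4 were at 0.38, 0.05, 0.38 and 0.06 in that order. The stretches before the start site of Brip1 (chr11:86201216-86201369, minus strand), Ube2t (chr1:134962405-134962564, plus strand) and Brca1 (chr11:101551956-101552115, minus strand) are given to show 3 matches in Brip1 and Ube2t beside the single match of Brca1, the gene with the largest value, 5′ to 3′ on the strand of the gene and with the CCAAT matches of either strand in capitals.
Brip1: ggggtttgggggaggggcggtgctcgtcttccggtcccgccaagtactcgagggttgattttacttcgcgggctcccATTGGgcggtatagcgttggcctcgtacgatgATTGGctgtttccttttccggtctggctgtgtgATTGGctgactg
Ube2t: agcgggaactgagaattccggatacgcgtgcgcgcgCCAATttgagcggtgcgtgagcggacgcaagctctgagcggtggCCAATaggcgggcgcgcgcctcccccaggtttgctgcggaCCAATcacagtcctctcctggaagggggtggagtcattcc
Brca1: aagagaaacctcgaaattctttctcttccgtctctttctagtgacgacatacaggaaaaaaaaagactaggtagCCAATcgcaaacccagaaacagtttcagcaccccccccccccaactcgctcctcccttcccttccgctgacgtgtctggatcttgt

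The matches of Brip1 begin at -99, -67 and -34 from the start site, all on the opposite strand, and those of Ube2t at -124, -80 and -40, all on the strand of the gene. Genes with a CCAAT match had a median log2 fold change of 0.19 in CTX against UT of the authors' deposited table, against 0.24 for the 13 without one. The CHR motif was found in 1 of the 32 genes, Polq, against 16.2% of tested genes.

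**Figure D3:**
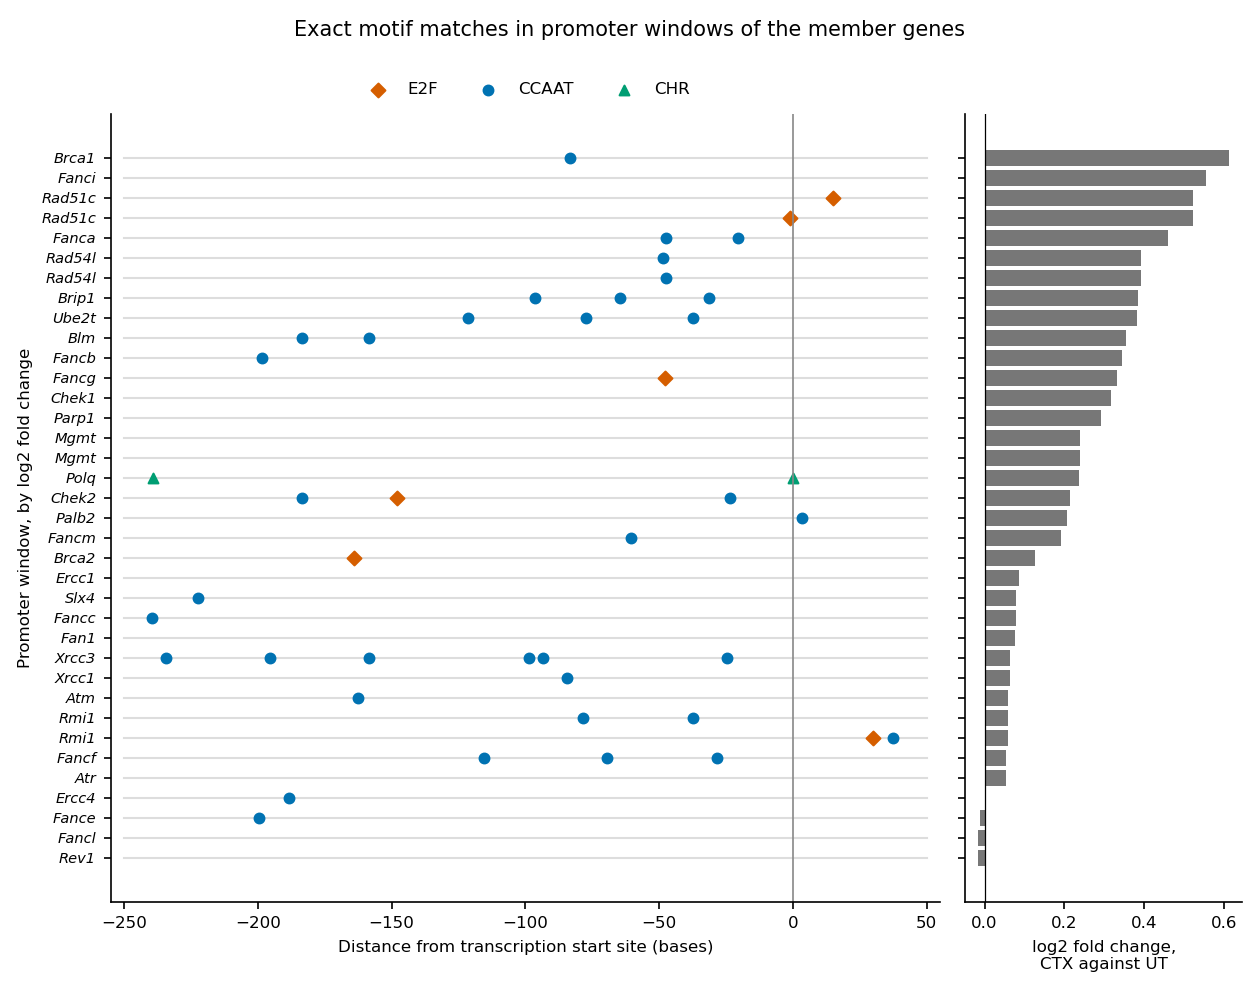
Centres of exact E2F, CCAAT and CHR matches by distance from the transcription start site in bases (left, 1 line per promoter window), and the log2 fold change of the gene in CTX against UT (right, bars from 0), with genes down the page from highest to lowest. E2F matches (diamonds) occur in 5 genes spread from Rad51c at 0.52 to Rmi1 at 0.06, and the lines of Fanci, Chek1 and Parp1 hold no match.

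Set against CTX, CAU ovaries had slightly lower values for most of the 35 genes, and none passed. In CAU against CTX of the authors' deposited table, 0 of the 35 had a DESeq2 adjusted p under 0.05, against 0.442% of 19245 genes. None of the 35 had an unadjusted DESeq2 p under 0.05 in either direction there, against 5.36% of genes. In the authors' deposited table, 26 of the 35 were below 0, against 47.7% of genes, with a median of -0.09 over the 35 and 0.00 over all genes. Every interval lay within a 2-fold change in either direction and 29 of the 35 within a 1.5-fold change.

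Mgmt had the lowest value in CAU against CTX. In the authors' deposited table it was at -0.44 (SE 0.26, unadjusted DESeq2 p = 0.0892), with an interval from 0.519-fold to 1.05-fold. Palb2 and Fancc were at -0.23 (SE 0.23) and -0.24 (SE 0.25) by the authors' deposited table, and the clamp genes Fanci and Fancd2 at -0.22 (SE 0.19) and -0.21 (SE 0.20). Of the 10 genes with an unadjusted p under 0.05 in CTX against UT, the 6 of the core and recombination groups lay between -0.13 and 0.01 here. The authors' deposited table has Blm at -0.13 (SE 0.19), Brca1 at -0.12 (SE 0.20), Brip1 at -0.04 (SE 0.17), Fanca at -0.03 (SE 0.11), Fancg at -0.04 (SE 0.12) and Rad51c at 0.01 (SE 0.21). The rest of the 10 were all below 0. They were Fanci and Fancd2, given above, with Parp1 at -0.16 (SE 0.12) and Chek1 at -0.11 (SE 0.13) by the authors' deposited table. Fancl had the highest value of the 35, 0.19 (SE 0.19) by the authors' deposited table. The kinase genes Atr and Atm were at 0.01 (SE 0.09) and 0.00 (SE 0.13) by the authors' deposited table.

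In CAU against UT, most of the 35 genes were again slightly positive and none passed. By the authors' deposited table, 0 of the 35 had a DESeq2 adjusted p under 0.05, against 0.0518% of 19302 genes. An unadjusted DESeq2 p under 0.05 with a higher value in CAU was found for 3 of the 35 in the authors' deposited table, against 1.20% of genes, and none had one with a lower value, against 2.26%. The 3 were Rad51c at 0.54 (SE 0.23, p = 0.0206), Fanca at 0.44 (SE 0.21, p = 0.0339) and Fancg at 0.30 (SE 0.15, p = 0.0391), by DESeq2 in the authors' deposited table. The value was above 0 for 27 of the 35, against 47.8% of genes, and the median was 0.11 over the 35 and -0.01 over all genes in the authors' deposited table.

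Brca1 was at 0.50 in CAU against UT of the authors' deposited table (SE 0.26, unadjusted DESeq2 p = 0.0542), and its interval, from 0.994-fold to 2.03-fold, was the 1 of the 35 that reached past a 2-fold change. Brip1 and Fanci were at 0.35 (SE 0.20) and 0.34 (SE 0.22) by the authors' deposited table. At the low end, Mgmt was at -0.19 (SE 0.30), Rev1 at -0.17 (SE 0.14) and Fancc at -0.15 (SE 0.23) by the authors' deposited table. The SEs of this comparison were wider, with a median of 0.21 over the 35, against 0.17 in CTX against UT and 0.14 in CAU against CTX. The log2 fold change needed to pass had a median of 0.89 and ran from 0.44 to 1.34.

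The comparisons share their groups, and their values are set side by side only. Rad51c was at 0.52 in CTX against UT, 0.01 in CAU against CTX and 0.54 in CAU against UT of the authors' deposited table, while Fancd2 was at 0.43, -0.21 and 0.23. Mgmt was at 0.24, -0.44 and -0.19 in the same order in the authors' deposited table. None of these 9 values passed the adjusted test, and differences in pattern between the genes were not tested.

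A further 102 genes of the same pathways were listed with earlier results known, and all were in the table. In CTX against UT of the authors' deposited table, 2 of the 102 rose and none fell by the DESeq2 adjusted p (0.472% of all genes rose), and 73 were positive with a median of 0.09. Uhrf1, an epigenetic reader that also binds crosslinks, was 1.33-fold higher in CTX (log2 fold change 0.41, SE 0.10, DESeq2 adjusted p = 0.00361) in the authors' deposited table. Mdc1, the scaffold that binds phosphorylated H2AX at breaks, was 1.26-fold higher in CTX (log2 fold change 0.33, SE 0.09, DESeq2 adjusted p = 0.0190) as the authors' deposited table lists it. The other 3 with the smallest p in the authors' deposited table did not pass. As listed in the authors' deposited table, these were the ligase gene Lig1 at 0.28 (SE 0.09, DESeq2 adjusted p = 0.0914), the recombination motor gene Rad54b at 0.60 (SE 0.21, DESeq2 adjusted p = 0.133) and Rad50, a subunit of the break-binding complex, at 0.27 (SE 0.09, DESeq2 adjusted p = 0.147).

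By kind, 17 of 21 other Fanconi and crosslink genes were positive in CTX against UT (median 0.09), 17 of 20 other recombination genes (median 0.14), 13 of 16 other checkpoint genes (median 0.13), 12 of 21 alkylation, base excision and mismatch repair genes (median 0.06) and 5 of 6 other polymerase genes (median 0.22). None of the 102 passed in CAU against CTX or in CAU against UT in the authors' deposited table, against 0.442% and 0.0518% of all genes. An unadjusted DESeq2 p under 0.05 was found for 2 of the 102 in CAU against CTX, against 5.36% of all genes. In CAU against UT, 5 had one with a higher value, against 1.20%, and 1 had one with a lower value, against 2.26%. The smallest unadjusted DESeq2 p in CAU against CTX of the authors' deposited table were those of Ercc2, a helicase of nucleotide excision repair, at -0.23 (SE 0.08, p = 0.00792), Aldh2, which clears crosslinking aldehydes, at -0.15 (SE 0.07, p = 0.0278), Rad50 at -0.21 (SE 0.11), the translesion polymerase gene Polk at -0.31 (SE 0.16) and the exonuclease gene Exo1 at -0.27 (SE 0.15). In CAU against UT of the authors' deposited table, genes with the smallest p included Aldh2 at -0.22 (SE 0.09), the replicative polymerase gene Pold1 at 0.38 (SE 0.16), Mdc1 at 0.28 (SE 0.12) and Uhrf1 at 0.33 (SE 0.16).

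Medians of the proliferation, granulosa, oocyte and p53 target lists all lay on the same side of 0 as that of the 35 genes in each comparison, and their part in these values was not tested. Over all genes, 91 of 19260 rose in CTX against UT and 25 of 19245 fell in CAU against CTX. Of 18 proliferation markers, 3 rose and all 18 were positive in CTX against UT (median 0.42), 16 were negative in CAU against CTX (median -0.19) and all 18 were positive in CAU against UT (median 0.27). In the authors' deposited table, the topoisomerase gene Top2a was at 0.62 (SE 0.15, DESeq2 adjusted p = 0.00909) and Mki67, which encodes the Ki-67 antigen, at 0.45 (SE 0.12, DESeq2 adjusted p = 0.0284) in CTX against UT, and Bub1 was the third that rose. Of 12 granulosa markers, 11 were positive (median 0.48) and 3 rose in CTX against UT, and the medians were -0.13 in CAU against CTX, where 1 fell, and 0.34 in CAU against UT. The 3 that rose were Inhba, Inhbb and Fst. Amh at 0.14, Foxl2 at 0.18 and Amhr2 at -0.14 in CTX against UT did not pass. These genes were named after their values were seen. Of 15 oocyte markers, 12 were positive in CTX against UT, the median was 0.12 and none passed the DESeq2 adjusted p, with 1 at an unadjusted p under 0.05. In CAU against CTX, 14 of the 15 oocyte markers were negative (median -0.11), and in CAU against UT 9 were positive (median 0.02). In CTX against UT the median of the 35 repair genes, 0.21, lay between those of the oocyte and proliferation markers.

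Of 16 p53 targets, 5 rose in CTX against UT (median 0.49) and 5 fell in CAU against CTX (median -0.47), while the median in CAU against UT was 0.05, with Cdkn1a, the p21 inhibitor, at 1.99 (SE 0.32) in CTX against UT and -1.41 (SE 0.24) in CAU against CTX by the authors' deposited table. In CTX against UT all 12 macrophage markers were negative (5 fell, median -0.96), as were 10 of 11 lymphocyte markers (2 fell, median -1.60) and all 11 markers of surface and tract epithelium (1 fell, median -1.40). Over all 19260 genes, 158 fell there and 44.2% were above 0. The 10 theca and stromal markers had a median of -0.06 and none passed, with 1 at an unadjusted DESeq2 p under 0.05. In CAU against CTX, 11 of the 12 macrophage markers were positive (2 rose, median 0.41), as were 8 of 11 lymphocyte markers (2 rose, median 0.30) and all 11 epithelial markers (none passed by DESeq2, 6 at an unadjusted p under 0.05, median 1.30). Of all 19245 genes, 60 rose, 25 fell and 52.3% were above 0 there. The medians of the macrophage, lymphocyte and epithelial lists in CTX against UT lay below the lowest value of the 35 repair genes, the -0.10 of Rev3l. Their part in the repair genes' values was not tested.

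**Figure D4:**
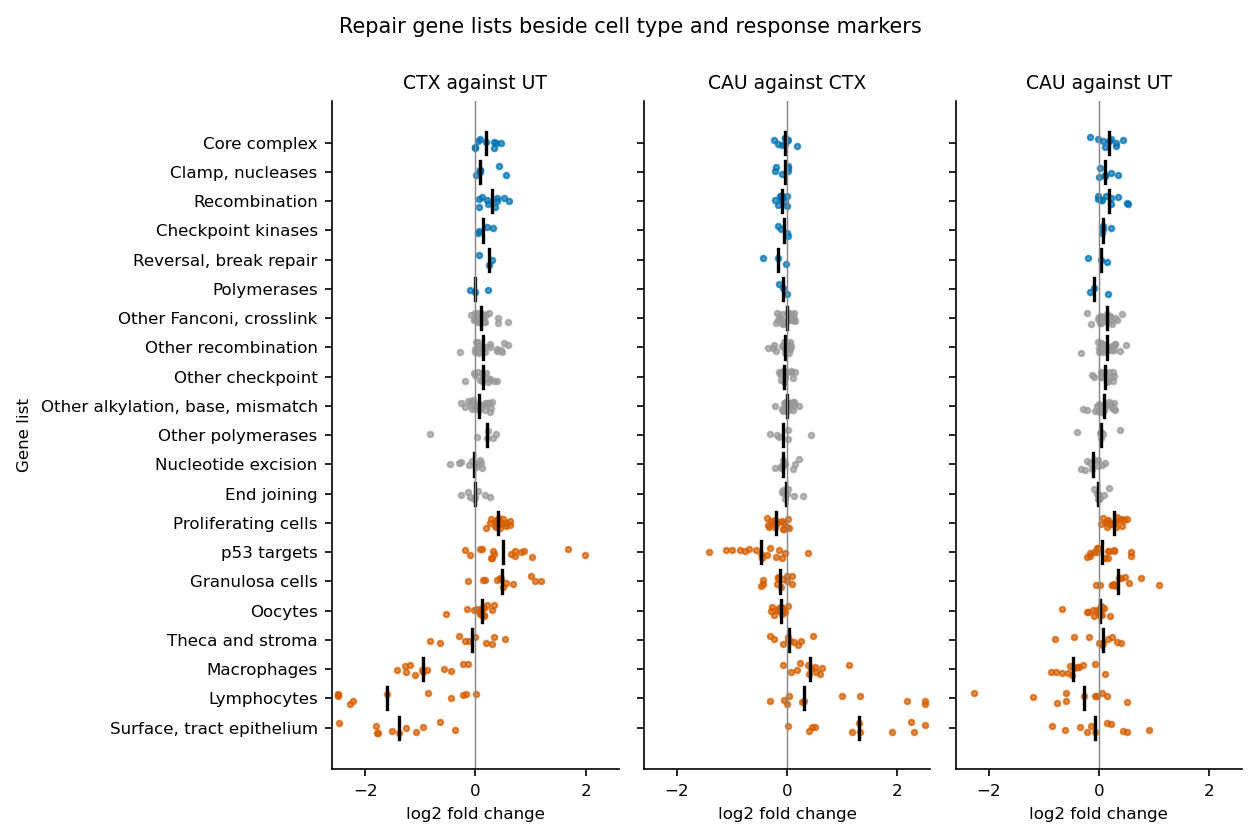
Log2 fold change of every listed gene (points) with the list median (black bar), for the 6 role groups of the 35 genes (blue), other repair lists (grey) and marker lists (orange). Values beyond 2.5 in either direction are drawn at the edge (3 genes in CTX against UT and 3 in CAU against CTX). In the left panel the recombination group has a median of 0.29 and the proliferation markers one of 0.42, while the macrophage markers have one of -0.96.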

How the data were processed

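Ovarian RNA of 9 samples in 3 groups of 3 was sequenced with a SMARTer mRNA kit, per the labels' protocols. Per the submitters' processing notes, the authors used HISAT2, Bowtie2, RSEM 1.3.1 and DESeq2 1.44.0 with build GRCm38.p6, and the role of each is not stated. Only the authors' deposited table was used. Per the file headers it holds log2 fold changes with a p-value and a q-value, here called adjusted p. Covariates, filters, annotation, strand setting and depth per sample were not given in the sources used here, so counts give no interval or floor.

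The SE was obtained by dividing a log2 fold change by the z score of its 2-sided p-value, in absolute terms, on the assumption of a Wald test without shrinkage. Genes with blank values (215 to 272 a comparison) were left out. As a check that the comparisons were oriented alike, the CTX/UT and CAU/CTX values were summed. The sum differed from CAU/UT by a constant, to within 0.01, in 18772 of 18773 genes. The same would hold with all signs flipped, so the sum cannot show which group is the numerator. The q-values differed by at most 7.74e-05 from a Benjamini-Hochberg adjustment. A gene was called at adjusted p under 0.05.

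The members and lists were chosen with earlier results of these data known, so no list was tested. Every member is named, with any other pathway gene called in a comparison, the 5 with the smallest p in each, and Cdkn1a, Top2a and Mki67. A gene that this rule names in CAU against UT is not reported here. The symbol H2afx was matched to H2ax through RefSeq synonyms. Alternatives were other thresholds, centring, a limit on the SE and scaling of z. Scripts were tested on simulated data and ran in Python 3.11.15 with scipy 1.17.1, pandas 2.3.3, numpy 2.4.6 and matplotlib 3.10.9.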

Additional observations from a re-analysis of the deposited data

How the results depend on the processing

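No paired analysis was possible because the table holds no value per library, and for the same reason leaving out replicates and a replicate block were not run. The count of 0 called among the 35 genes in CTX against UT became 2 (Fanci and Brca1) at adjusted p under 0.10, 2 (again Fanci and Brca1) once values were centred on the all-gene median, and 1 (Fanci) with genes of an SE of at most 1 adjusted together. It stayed 0 at adjusted p under 0.01 and with z divided by its robust spread. In CAU against CTX and in CAU against UT it was 0 under all 5 alternatives, including z scaling, which raised the calls over all genes to 237 in CAU against CTX, against 85, and to 255 in CAU against UT, against 10. At adjusted p under 0.10 and under 0.01 the calls over all genes were 415 and 117 in CTX against UT, and 117 and 43 in CAU against CTX. The medians of the 35 genes kept their sign under centring, weighting by SE and a limit of 0.3 on the SE, from 0.16 to 0.23 in CTX against UT. With centring, 34 of the 35 were positive in CTX against UT, against 31. Precision, given by the SE, limited single genes to differences of the sizes stated, and depth is unknown.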

Other observations

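Medians of the excision and end joining lists were near 0 in CTX against UT. Of 10 nucleotide excision repair genes, 5 were positive and 5 negative (median -0.03), and of 8 end joining genes 4 and 4 (median -0.02), with none called by the DESeq2 adjusted p in the authors' deposited table. Their lowest and highest values there were those of Xpa, the damage-verifying factor of excision repair, at -0.47 (SE 0.18, DESeq2 adjusted p = 0.213), and of Prkdc, the catalytic subunit of the end joining kinase, at 0.26 (SE 0.10, DESeq2 adjusted p = 0.259), both named after their values were seen. In CAU against UT of the authors' deposited table, 8 of the 10 excision repair genes were negative (median -0.11). Differences between lists were not tested.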
